A study of Mus musculus with 2 samples.

Results

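Isg15, Uba7, Ube2l6, Herc6 and Usp18 encode the ubiquitin-like modifier ISG15 and the enzymes that attach it to proteins and remove it. The 5 genes were found by symbol among the 31053 genes of the count matrices, and all 5 were present. They were chosen for their place in 1 pathway with the difference between these 2 libraries already known: they were selected on the UMI levels of Isg15 and other interferon-induced genes in the contrast described here. Every level and ratio below is therefore a description, without a test.

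The cells came from the bone marrow of C57BL/6 mice aged 6 months, which the labels give with atherosclerosis as the disease. Both groups were Apoe(-/-), lacking by label the apolipoprotein whose loss raises plasma cholesterol. One group was also Itgb3(-/-), without integrin β3 by label, and is called the null-labelled library, and the other was Itgb3(+/+) and is called the control-labelled library. Each group was 1 droplet library of single cells counted from the 3′ ends of transcripts as unique molecular identifiers (UMIs), and the sources used here do not give the number of animals in each. The comparison asks how transcripts of marrow cells differ between those genotypes.

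ISG15 is made as a precursor, and its conjugation follows the order of ubiquitin. UBA7 activates it, UBE2L6 carries it, and a HERC ligase, in mice mainly HERC6, transfers it to proteins, many of them newly made. USP18 cuts it off again and, apart from that activity, restrains signalling at the interferon receptor subunit IFNAR2. All 5 genes are known to be induced by interferons, and ISG15 is also secreted.

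After filtering, 2903 null-labelled cells with 33570111 UMIs and 8595 control-labelled cells with 59003767 UMIs were kept, at medians of 9321 and 4812 UMIs per cell. The null-labelled cells were thus the deeper ones. Itgb3 itself was counted at 7.39 CPM (counts scaled to 1000000 UMIs, here from 248 UMIs) among null-labelled cells and at 23.6 CPM (1391 UMIs) among control-labelled cells, and Apoe, lacking by label in both, at 62.0 and 98.4 CPM. Counts from 3′ ends outside a deleted part check nothing, and the sources used here do not name the part deleted, so the genotypes stand as labels. The libraries shared 11 cell barcodes, 6 of them among the cells kept. Cells fell into 9 classes with at least 50 cells in both libraries, named from marker genes. Of the 155 sub-clusters behind the names, 149 held at least 90% cells of a single library, and in each of the 9 classes the sub-cluster with the most null-labelled cells was another than that with the most control-labelled cells. No class had a defining marker at 0. Erythroid-like cells, the red cell precursors, had 12 of 12 markers detected in at least 10% of cells in both libraries. In T-like cells it was 7 of 8 in the null-labelled and 8 of 8 in the control-labelled library, and in mature B-like cells 6 of 8 and 8 of 8.

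The genes lie on 4 chromosomes of mm10 (GENCODE vM21, positions counted from 1). Isg15 (ENSMUSG00000035692) spans chromosome 4 from 156199424 to 156200818 on the minus strand. Usp18 (ENSMUSG00000030107) and Herc6 (ENSMUSG00000029798) are both on the plus strand of chromosome 6, from 121245906 to 121270917 and from 57581000 to 57664632. Uba7 (ENSMUSG00000032596) spans chromosome 9 from 107975505 to 107984060, and Ube2l6 (ENSMUSG00000027078) chromosome 2 from 84798828 to 84810335, both on the plus strand. All 5 are annotated as protein-coding. Uba7 overlaps a same-strand gene, Gm20661, with 70 and 8 UMIs of its own, so a few Uba7 UMIs could have been split between them, and Usp18 overlaps the opposite-strand gene Gm44148, with 3 and 6 UMIs.

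The promoters of these genes are shown because their transcripts were high together in the null-labelled library. RefSeq windows (GRCm38.p6) existed for 4 of the 5 genes, and the 120 bases before the start are printed for Isg15 and Ube2l6, the members with the most UMIs. Capitals mark matches to the core of the interferon-stimulated response element, which is GAAA, any 2 bases and GAAA again, and is bound by the interferon-activated factor ISGF3. The Isg15 window is chr4:156200819-156200938 on the minus strand, and that of Ube2l6 is chr2:84798708-84798827 on the plus strand.
Isg15: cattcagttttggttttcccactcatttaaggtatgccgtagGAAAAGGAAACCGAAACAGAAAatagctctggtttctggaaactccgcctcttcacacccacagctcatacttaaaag
Ube2l6: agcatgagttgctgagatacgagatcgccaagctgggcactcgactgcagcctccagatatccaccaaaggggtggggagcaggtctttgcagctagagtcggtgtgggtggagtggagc
Isg15 held 3 overlapping matches, each 6 bases after the one before, which together run from 78 to 57 bases before the start. Searched on both strands, 3.44% of all 32851 RefSeq windows of 300 bases held at least 1 match and 5 windows (0.0152%) held 3 or more. The windows of Ube2l6, Uba7 and Herc6 held 0 matches, and those of the 4 genes held 0 matches to the gamma-activated site TTCNNNGAA, which 8.30% of windows held. A match is a run of letters, not a measured site, and 0 matches says only that these letters are not in this window.

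Over all cells, the modifier and each enzyme stood higher in the null-labelled library. Isg15 was at 2311 CPM in null-labelled cells and at 127 CPM in control-labelled cells. Usp18, the deconjugating protease, was at 118 and 5.64 CPM, a ratio of 21.0 (95% interval 18.8 to 23.5). The ratio of Usp18 was above that of Isg15, 18.1 (17.7 to 18.6), and the intervals did not overlap. The conjugating enzymes had smaller ratios. Herc6, the ligase, was at 145 and 20.8 CPM, a ratio of 6.97 (6.55 to 7.43). Uba7, the activating enzyme, was at 100.4 and 21.5 CPM, a ratio of 4.67 (4.38 to 4.99). Ube2l6, the carrier enzyme, was at 607 and 164 CPM, a ratio of 3.71 (3.62 to 3.80). All 5 were thus 2-fold or more higher and 0 lower, where 7.88% of the 2717 genes with enough counts (a minimum of 50 CPM in 1 of the libraries and of 30 UMIs in their sum) were 2-fold higher and 12.1% 2-fold lower. With the trimmed-mean (TMM) scaling of edgeR in place of total UMIs, 276 genes were higher and 200 lower instead of 214 and 329. That scaling moved the median log2 ratio of all genes from -0.25 to -0.02. The minimum of 50 CPM was applied after it, so the set of genes with enough counts can differ between the scalings. These intervals, like all below, cover counting error only, there being 1 library per genotype. The class make-up of the libraries differed too, so the classes are taken in turn.

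Isg15 was highest in erythroid-like cells in both libraries, at 5990.1 CPM (5944 to 6036) and 341 CPM (332 to 349.6). Mature neutrophil-like cells followed, at 1211 and 72.8 CPM, and then monocyte-like cells, at 838 and 41.0 CPM. In the null-labelled library, immature neutrophil-like cells at 557 CPM and granulocyte-monocyte progenitor-like cells at 549 CPM had overlapping intervals, and every other neighbour in the order was apart. These were followed by stem and progenitor-like cells of the blood lineages (HSPC-like) at 414 CPM, B precursor-like cells at 304 CPM, T-like cells at 166 CPM and mature B-like cells at 69.4 CPM, 86.3-fold under the erythroid-like level. In the control-labelled library, only the 2 leading classes were apart from the next. The others had T-like cells at 34.9 CPM, mature B-like at 19.5 CPM, B precursor-like at 18.0 CPM, immature neutrophil-like at 13.7 CPM, HSPC-like at 11.5 CPM (10 UMIs) and granulocyte-monocyte progenitor-like cells at 5.85 CPM (33 UMIs). The lymphoid classes thus stood at the low end in the null-labelled library. In the control-labelled library, each class from monocyte-like cells down overlapped the next. Those classes also lay, by value, under the free RNA level gauged from hemoglobin that is given below. Their order is therefore not read as an order of expression.

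**Figure D1:**
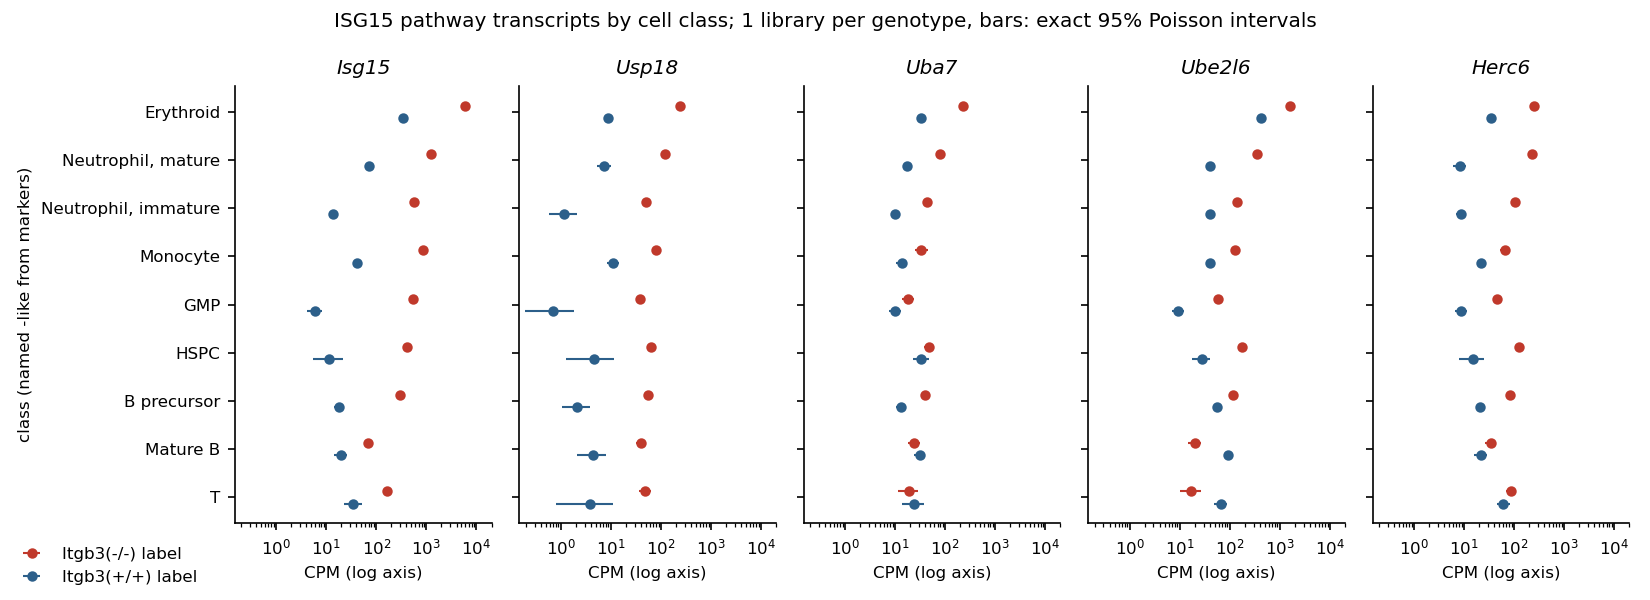
Level of each of the 5 genes as CPM on a log axis in the 9 classes, 1 point per library (red null-labelled, blue control-labelled), with exact 95% Poisson intervals; GMP stands for granulocyte-monocyte progenitor. Erythroid-like cells carry the highest null-labelled level of each gene, and the blue points lie above the red ones for Ube2l6 and, with overlapping intervals, Uba7 in mature B-like and T-like cells.

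Ube2l6, which hands ISG15 from UBA7 to the ligase, was also an erythroid-high transcript in both libraries. It stood at 1614 CPM (1590.5 to 1638) in null-labelled and 419.7 CPM (410.0 to 429.6) in control-labelled erythroid-like cells. In the null-labelled library mature neutrophil-like cells followed at 354 CPM, HSPC-like at 173 CPM, immature neutrophil-like at 143 CPM, monocyte-like at 127 CPM, B precursor-like at 114 CPM and granulocyte-monocyte progenitor-like at 58.5 CPM. Mature B-like cells, at 20.5 CPM, and T-like cells, at 16.7 CPM, were the lowest and did not differ beyond their intervals. In the control-labelled library the order was another, with mature B-like cells second at 92.3 CPM, then T-like at 66.0 CPM and B precursor-like at 55.3 CPM. Mature neutrophil-like, monocyte-like and immature neutrophil-like cells lay together there at 41.2, 40.8 and 40.1 CPM, above HSPC-like cells at 27.5 CPM and granulocyte-monocyte progenitor-like cells at 9.22 CPM. Mature B-like and T-like cells, the lowest in one library, were thus next to the erythroid-like cells in the other.

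Usp18 spanned a narrower range in the null-labelled library, with its highest class 6.24-fold above its lowest. Erythroid-like cells held 239 CPM, mature neutrophil-like 121 CPM, monocyte-like 79.8 CPM, HSPC-like 64.5 CPM and B precursor-like 55.3 CPM. Immature neutrophil-like cells held 51.3 CPM, T-like 48.4 CPM, mature B-like 40.1 CPM and granulocyte-monocyte progenitor-like 38.3 CPM, and from monocyte-like cells down each class overlapped the next. In the control-labelled library Usp18 was near the limit of detection in most classes. Monocyte-like cells were highest at 11.2 CPM (51 UMIs), overlapping erythroid-like cells at 8.63 CPM (145 UMIs) and mature neutrophil-like cells at 7.48 CPM (41 UMIs). The remaining 6 classes lay between 0.709 CPM in granulocyte-monocyte progenitor-like and 4.58 CPM in HSPC-like cells, on 3 to 11 UMIs each.

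Uba7, the only activating enzyme of the pathway, was spread most evenly in the control-labelled library, with its highest class 3.35-fold above its lowest. There HSPC-like cells at 33.2 CPM, erythroid-like at 32.7 CPM, mature B-like at 30.6 CPM and T-like at 23.3 CPM overlapped in turn. Lower levels were in mature neutrophil-like cells, at 17.5 CPM, monocyte-like at 13.4 CPM, B precursor-like at 13.2 CPM, immature neutrophil-like at 10.0 CPM and granulocyte-monocyte progenitor-like at 9.93 CPM. In the null-labelled library erythroid-like cells stood apart at 230.0 CPM, followed by mature neutrophil-like cells at 79.7 CPM. The other 7 classes ran from 47.5 CPM in HSPC-like through 44.1 CPM in immature neutrophil-like, 40.2 CPM in B precursor-like, 33.5 CPM in monocyte-like, 24.0 CPM in mature B-like and 18.5 CPM in T-like to 18.1 CPM in granulocyte-monocyte progenitor-like cells. Each of these overlapped the next.

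Herc6, the ligase, was not an erythroid-leading gene in the control-labelled library. T-like cells were highest there at 60.8 CPM (44.7 to 80.9), apart from erythroid-like cells at 34.4 CPM. Monocyte-like, mature B-like and B precursor-like cells lay together at 22.2, 21.3 and 21.1 CPM, HSPC-like cells at 14.9 CPM, granulocyte-monocyte progenitor-like at 8.69 CPM, immature neutrophil-like at 8.50 CPM and mature neutrophil-like at 8.21 CPM. Mature neutrophil-like cells, the lowest class there, were among the highest in the null-labelled library, at 229.5 CPM (206 to 254), where they overlapped erythroid-like cells at 254 CPM (245 to 264). HSPC-like cells followed at 122 CPM, immature neutrophil-like at 103 CPM, T-like at 86.2 CPM, B precursor-like at 80.9 CPM, monocyte-like at 65.1 CPM, granulocyte-monocyte progenitor-like at 45.2 CPM and mature B-like at 33.8 CPM.

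Within erythroid-like cells, whose 961 null-labelled and 2009 control-labelled cells held most UMIs of Isg15, all 5 genes were 2-fold or more higher and 0 lower. Among the 2168 genes tested in this class, 7.52% were 2-fold higher and 44.6% 2-fold lower. Hemoglobin was 55.8% of the null-labelled and 36.7% of the control-labelled UMIs of the class, and with TMM scaling, which moved the median log2 ratio of all genes in this class from -0.87 to 0.12, 429 genes were higher and 207 lower instead of 163 and 968. The ratio was 27.7 (23.4 to 33.0) for Usp18, 17.6 (17.1 to 18.1) for Isg15, 7.38 (6.75 to 8.09) for Herc6, 7.02 (6.40 to 7.72) for Uba7 and 3.85 (3.74 to 3.95) for Ube2l6. These class values pool cells of different hemoglobin share, which are taken apart below. Counted per cell, a null-labelled erythroid-like cell held a mean of 67.3 Isg15 UMIs against 2.85, and 18.1 Ube2l6 UMIs against 3.51, at median depths of 10030.0 and 5791 UMIs. TMM scaling would raise the log2 ratio of each member here by 0.80, to 4.94 for Isg15 and 2.74 for Ube2l6. The other members were at 2.69 against 0.0722 UMIs per cell for Usp18, 2.58 against 0.274 for Uba7 and 2.85 against 0.288 for Herc6.

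In mature neutrophil-like cells all 5 were also 2-fold or more higher, where 23.1% of genes were. Herc6 had the largest ratio there, 28.0 (20.5 to 39.0), above Isg15 at 16.6 and Usp18 at 16.2, followed by Ube2l6 at 8.58 and Uba7 at 4.55. In the other myeloid and progenitor classes the members with enough counts were all higher. In immature neutrophil-like cells it was 4 of 4 (11.3% of genes), with Usp18 at 43.3 (23.9 to 87.7), Isg15 at 40.7, Herc6 at 12.1 and Ube2l6 at 3.56. In monocyte-like cells it was 4 of 4 (12.8% of genes), with Isg15 at 20.4, Usp18 at 7.14, Ube2l6 at 3.11 and Herc6 at 2.94. Uba7 did not reach 50 CPM in either of these classes, with ratios of 4.41 and 2.51. Isg15 and Usp18, the modifier and its protease, thus had larger ratios than the conjugating enzymes in both classes. In the 2 neutrophil classes, each processing alternative that moved a value by over 1.5 times raised it, most for Herc6 in immature neutrophil-like cells, from a log2 ratio of 3.60 to 7.41 with free RNA subtracted, that is, the library-wide profile scaled to the hemoglobin found in B-like and T-like cells. Scaled instead to the neutrophil transcripts found in them, an alternative chosen after seeing the data, that value was 3.62.

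Of the 9 classes, granulocyte-monocyte progenitor-like cells had the largest Isg15 ratio, 93.9 (66.6 to 137), on 33 control UMIs. That control level was 0.117 times the free RNA level gauged from hemoglobin, and is not read as expression. The control Isg15 levels of HSPC-like and immature neutrophil-like cells were also under it, at 0.229 and 0.274 times. In granulocyte-monocyte progenitor-like cells Ube2l6 was at 6.35, and both of the 2 members with enough counts were higher (10.1% of genes). Usp18 at 54.1 (20.6 to 201, on 4 control UMIs), Herc6 at 5.20 and Uba7 at 1.83 lay under 50 CPM there. In HSPC-like cells 4 of 4 were higher (9.41% of genes), with Isg15 at 36.1 (19.5 to 75.7), Usp18 at 14.1 (5.35 to 52.5, on 4 control UMIs), Herc6 at 8.20 and Ube2l6 at 6.29. Uba7, under 50 CPM, was at 1.43 (0.927 to 2.26), an interval that spanned 1. Its log2 ratio of 0.52 turned to -1.81 as a mean over cells and to -1.23 with clusters formed from all variable genes, and that of Usp18 in HSPC-like cells went from 3.81 to 1.86 with cells thinned to 1000 UMIs.

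**Figure D2:**
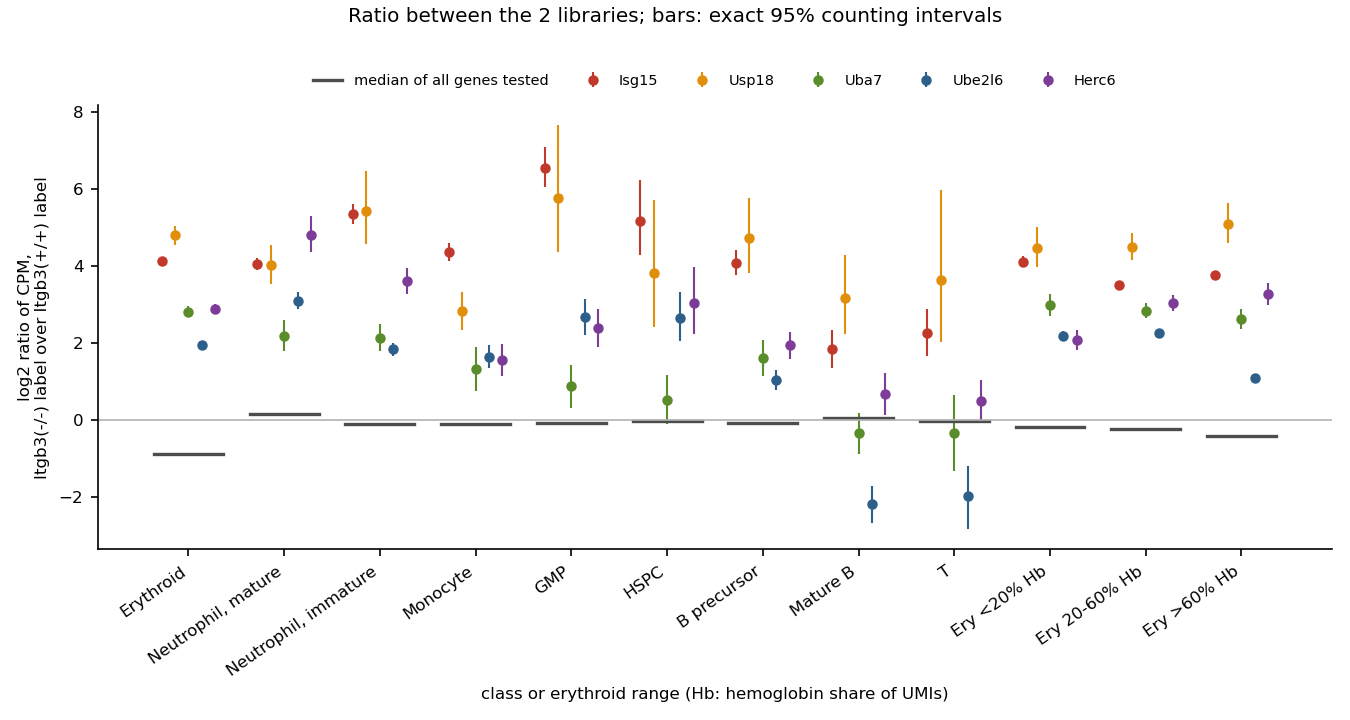
Log2 ratio of CPM, null-labelled over control-labelled, for the 5 genes in the 9 classes and 3 erythroid ranges, with exact 95% counting intervals; grey bars give the median of all genes tested in that class. Isg15 and Usp18 lie above 0 in every class and range, whereas Ube2l6 lies below 0 in mature B-like and T-like cells.

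The lymphoid classes were uneven. In B precursor-like cells 4 of 4 members with enough counts were higher (8.72% of genes), with Usp18 at 26.3 (14.2 to 54.1), Isg15 at 16.9, Herc6 at 3.84 and Ube2l6 at 2.06, and Uba7, not reaching 50 CPM, at 3.04. The Ube2l6 value lay at the 2-fold limit, with a log2 ratio of 1.04 that was 0.19 with cells thinned to 1000 UMIs and 0.66 as a mean over cells. In T-like cells 1 of 3 was higher (10.5% of genes), which was Isg15 at 4.76 (3.17 to 7.41), and 1 was lower, which was Ube2l6. The third, Herc6, was at 1.42 (0.991 to 2.05), or a log2 ratio of 0.50 that became -0.09 with free RNA subtracted as gauged from hemoglobin and 0.49 as gauged from neutrophil transcripts. In mature B-like cells 1 of 2 was higher (12.7% of genes), again Isg15, at 3.56 (2.53 to 5.09), and 1 was lower, again Ube2l6. In T-like and mature B-like cells the Isg15 level of both libraries lay, by value, under the free RNA level gauged from hemoglobin, in T-like cells with intervals that held it. With cells over 5% mitochondrial UMIs left out, 36 null-labelled and 118 control-labelled mature B-like cells remained and the log2 ratio of Isg15 went from 1.83 to -0.13, whereas with cells thinned to 1000 UMIs it was 3.26. Among the members under 50 CPM, Usp18 was at 12.5 in T-like (4.05 to 62.3, on 3 control UMIs) and 9.03 in mature B-like cells (4.69 to 19.5). Uba7 was at 0.793 (0.402 to 1.58) and 0.785 (0.540 to 1.14), and Herc6 at 1.59 (1.09 to 2.33) in mature B-like cells, a log2 ratio of 0.67 that was 0.04 with thinning.

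Ube2l6 was the only member whose ratio had an interval wholly under 1 in a compared class. Mature B-like cells held 20.5 CPM (46 UMIs) against 92.3 CPM (208 UMIs), a ratio of 0.222 (0.158 to 0.307), and T-like cells 16.7 CPM (19 UMIs) against 66.0 CPM (51 UMIs), a ratio of 0.253 (0.141 to 0.436). As a mean per cell this was 0.129 against 0.250 UMIs in mature B-like and 0.130 against 0.254 UMIs in T-like cells, although depth per cell was greater in the null-labelled library. Hemoglobin, which neither class makes, moved with it, at 0.855% of null-labelled and 7.78% of control-labelled UMIs in mature B-like cells and at 1.04% and 6.05% in T-like cells. Barcodes with under 200 genes, which were left out of the cells, held 94.7% and 92.3% hemoglobin and carried Ube2l6 at 906 CPM (null-labelled) and 817 CPM (control-labelled). RNA of that make-up, scaled to the hemoglobin share of each class, would bring 68.9 of the 92.3 CPM (74.7%) in control-labelled mature B-like cells and 53.6 of 66.0 CPM (81.2%) in T-like cells. In the null-labelled library it would bring 8.18 of 20.5 CPM (40.0%) and 9.95 of 16.7 CPM (59.5%). With that amount subtracted, an alternative chosen after seeing the data, the log2 ratio went from -2.17 to -1.04 in mature B-like and from -1.98 to -0.95 in T-like cells. The T-like value was -0.98 as a mean over cells and -3.82 with clusters formed from all variable genes. The part of red cell RNA in these differences was not tested beyond these values.

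Red cell RNA of this kind would, by the same scaling, bring much of other control levels of Ube2l6 as well. It would bring 91.7% of the control level in mature neutrophil-like, 91.2% in granulocyte-monocyte progenitor-like and 69.9% in B precursor-like cells, against 3.35%, 4.62% and 20.4% of the null level. After subtraction the log2 ratio of Ube2l6 in those classes was 6.60, 6.10 and 2.41, from unsubtracted ratios of 8.58, 6.35 and 2.06 on the linear scale. For Isg15 it would bring up to 66.9% of the control level, in mature B-like cells, but at most 6.04% of the null level in any of the 8 classes other than erythroid. For Usp18, Uba7 and Herc6 it would bring at most 1.02% of any level. Whether the hemoglobin came with such RNA was not tested, and the Ube2l6 order among control-labelled classes is not read as an order of expression.

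**Figure D3:**
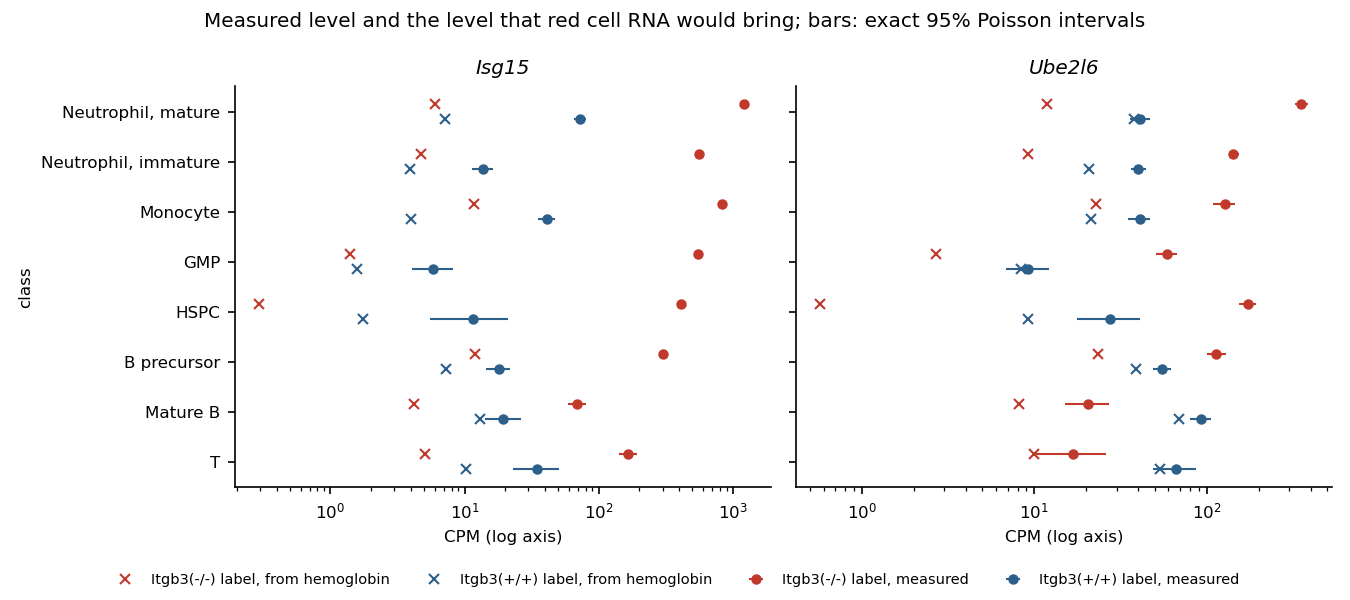
Measured CPM (points, with exact 95% Poisson intervals) and the CPM that RNA with the make-up of the barcodes with under 200 genes would bring at the hemoglobin share of each class (crosses), for Isg15 and Ube2l6 in the 8 classes other than erythroid, on log axes. Blue crosses lie close to the blue points of Ube2l6 in mature neutrophil-like and granulocyte-monocyte progenitor-like cells, and red crosses of Isg15 lie far to the left of the red points.

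Along the erythroid lineage, the genes did not share 1 course. Erythroid-like cells were cut by the share of their UMIs that was hemoglobin, which grows as red cells mature, into under 20% (104 null-labelled and 430 control-labelled cells), 20 to 60% (263 and 673) and over 60% (594 and 906). These are ranges, not types: within 5 percentage points of the lower cut lay 38 and 119 cells, and of the upper cut 88 and 155 cells. Isg15 was higher in each later range, at 1092, 5715 and 8082 CPM in null-labelled and at 63.0, 503 and 601 CPM in control-labelled cells. The last range exceeded the first 7.40-fold (7.11 to 7.70) and 9.53-fold (8.64 to 10.5). The gradient of Isg15 was thus present in both libraries, and per total UMI was smaller in the null-labelled one between the first and last range.

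Ube2l6 was also higher late. It was at 519, 1965 and 1889 CPM among null-labelled and at 115, 412 and 883 CPM among control-labelled cells, 3.64-fold (3.43 to 3.87) and 7.67-fold (7.12 to 8.26) from the first to the last range. Between the libraries its ratio went from 4.51 and 4.77 in the first 2 ranges to 2.14 (2.06 to 2.22) in the last, where the log2 ratio of 1.10 became 0.57 with free RNA subtracted as gauged from hemoglobin and 1.09 as gauged from neutrophil transcripts. Usp18, Uba7 and Herc6 peaked in the middle range in both libraries. Usp18 was at 113, 361 and 232 CPM (null-labelled) against 5.08, 16.1 and 6.79 CPM (control-labelled). Uba7 was at 152, 426 and 169.6 CPM against 19.1, 59.5 and 27.6 CPM, and Herc6 at 134, 406 and 231 CPM against 31.9, 49.2 and 24.1 CPM. The modifier and its carrier enzyme thus stayed high in the range richest in hemoglobin, where the other 3 were lower per total UMI than in the middle range.

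Hemoglobin takes up UMIs that would otherwise count other genes, so the levels were also set as CPM of the UMIs that were not hemoglobin. On that scale each gene was highest in the last range in both libraries, although for control-labelled Usp18 the step from the middle to the last range had an interval that spanned 1 (1.27, 0.819 to 1.94). Isg15 rose over the ranges from 1147 through 9967 to 45722 CPM in null-labelled cells and from 66.9 through 835 to 3013 CPM in control-labelled cells. Its last range exceeded the first 39.9-fold (38.3 to 41.5) and 45.0-fold (40.8 to 49.8), so on this scale the intervals of the libraries overlapped. Ube2l6 went from 545 through 3427 to 10686 CPM and from 122 through 684 to 4428 CPM. Usp18 went from 119 to 1314 CPM in the null-labelled library and was 6.31-fold higher in the last than in the first control-labelled range, while Uba7 went from 159 to 959 CPM and from 20.3 to 138 CPM, and Herc6 from 141 to 1306 CPM and from 33.8 to 121 CPM. The scale turned the direction of Herc6 in the control-labelled library, whose last range was at 0.756 of the first (0.600 to 0.948) per total UMI and at 3.57 (2.83 to 4.48) per UMI that was not hemoglobin. Neither scale gives copies per cell. Per cell, Isg15 averaged 24.3, 58.8 and 78.6 UMIs in the null-labelled and 1.07, 3.48 and 3.22 UMIs in the control-labelled ranges.

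**Figure D4:**
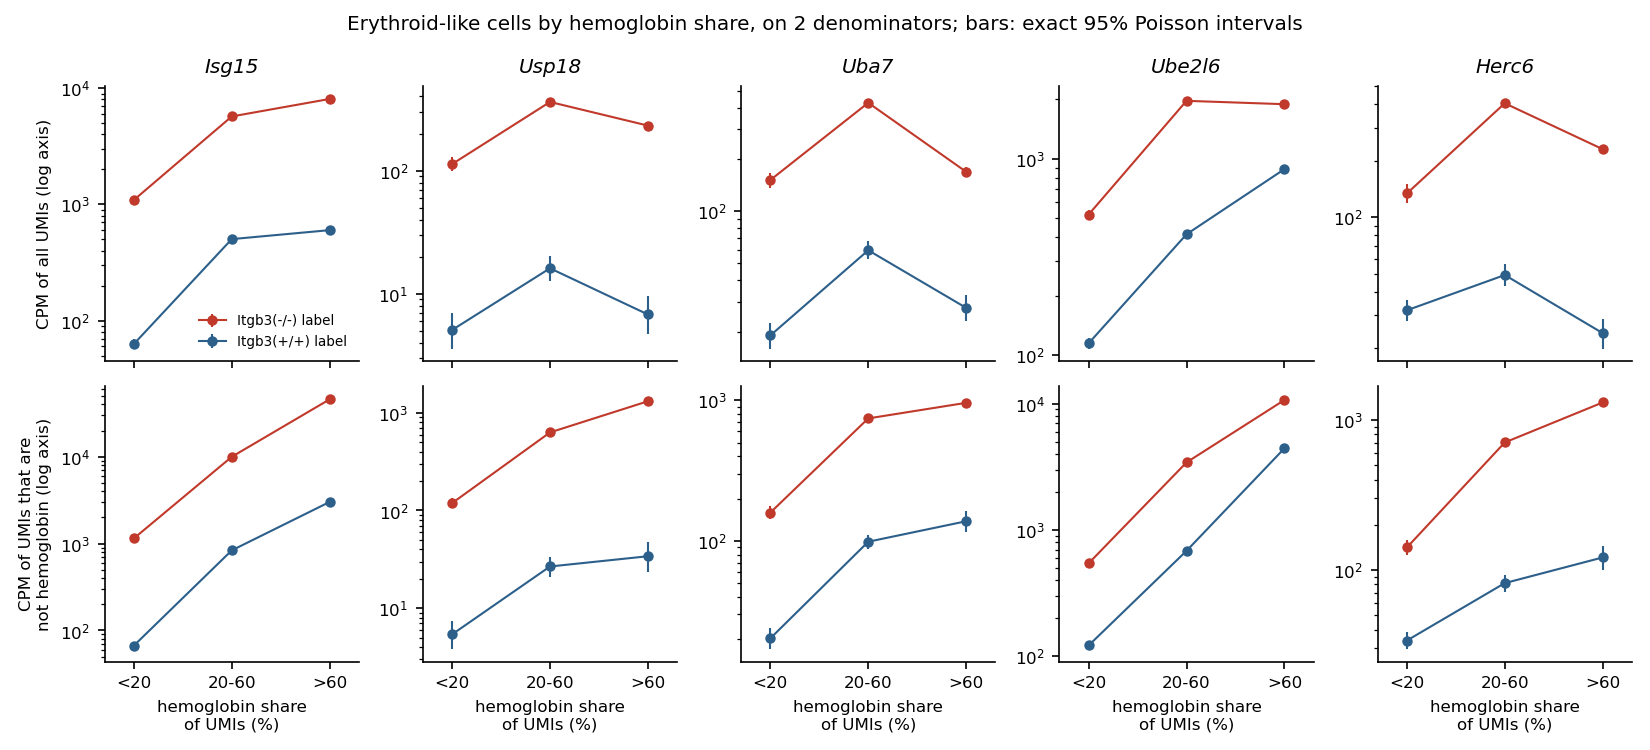
CPM of the 5 genes in 3 ranges of hemoglobin share within erythroid-like cells, per total UMIs (top) and per UMIs that are not hemoglobin (bottom), on log axes with exact 95% Poisson intervals, red null-labelled and blue control-labelled. Isg15 climbs to 8082 and 601 CPM per total UMIs, while Usp18, Uba7 and Herc6 are highest at 20 to 60% in the top panels and at over 60% in the bottom panels.

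Between the libraries, all 5 genes were 2-fold or more higher in each range, where 9.28%, 13.5% and 24.1% of the genes tested were. Isg15 was at ratios of 17.3, 11.4 and 13.5, and Usp18 at 22.3, 22.4 and 34.2 (24.2 to 49.9). Uba7 was at 7.94, 7.16 and 6.15, and Herc6 at 4.22, 8.25 and 9.59. Of the members, Herc6 and Usp18 had by value their largest ratio in the last range, and Uba7 and Ube2l6 their smallest. Among these, only the Ube2l6 interval of the last range was apart from that of the middle range. By value, the class ratio of Isg15, 17.6, lay above that of each range. Cells over 60% hemoglobin were 594 of the 961 null-labelled and 906 of the 2009 control-labelled erythroid-like cells. Erythroid-like cells also held transcripts that mark other lineages. Markers of mature neutrophils summed to 156 CPM (null-labelled) and 582 CPM (control-labelled), those of granulocyte-monocyte progenitors to 116 and 272 CPM, and those of macrophages to 4.54 and 72.7 CPM. In the range under 20% hemoglobin, HSPC markers summed to 222 and 84.7 CPM and granulocyte-monocyte progenitor markers to 324 and 384 CPM, and their part in the ratios of that range was not tested. The plasmacytoid dendritic cell list summed to 333 and 29.6 CPM, mostly Bst2 at 294 and 13.3 CPM, which interferons also induce, and its defining marker Siglech was at 0 in both.

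Cell by cell, Isg15 was a general feature of null-labelled erythroid-like cells and was held by fewer control-labelled cells. To remove the depth difference, each cell was thinned to 1000 UMIs, which left out 14 and 35 shallower erythroid-like cells. An Isg15 UMI was then found in 89.1% (87.0 to 91.0, exact Clopper-Pearson) of 947 null-labelled and 21.2% (19.4 to 23.0) of 1974 control-labelled erythroid-like cells, or in 942 of 961 and 1022 of 2009 cells unthinned. The thinned share went from 68.1% through 92.7% to 90.9% over the ranges in the null-labelled and from 5.49% through 22.8% to 26.9% in the control-labelled library. The median thinned cell held 6.00 Isg15 UMIs in the null-labelled library, with a lowest of 0 and a highest of 92. In the control-labelled library the median and the lowest were 0 and the highest was 18. The 5% of cells with the most held 16.6% of the null-labelled and 53.8% of the control-labelled Isg15 UMIs of the class. In the range over 60% hemoglobin, 36.9% of null-labelled and 0.662% of control-labelled cells held 10 to 19 UMIs.

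Ube2l6 was less uneven between the libraries at this level. A Ube2l6 UMI was found in 79.1% of null-labelled and 40.2% of control-labelled thinned erythroid-like cells, and in 39.4%, 83.8% and 83.3% against 10.7%, 33.9% and 57.9% over the ranges. Usp18 was found in 23.3% and 1.01%. A UMI of at least 1 of the 4 enzymes was present in 90.2% of 844 null-labelled erythroid-like cells with Isg15 and in 63.1% of the 103 others. In the control-labelled library the shares were 60.8% of 418 and 40.6% of 1556. These shares mix the ranges, which differed in both genes.

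**Figure D5:**
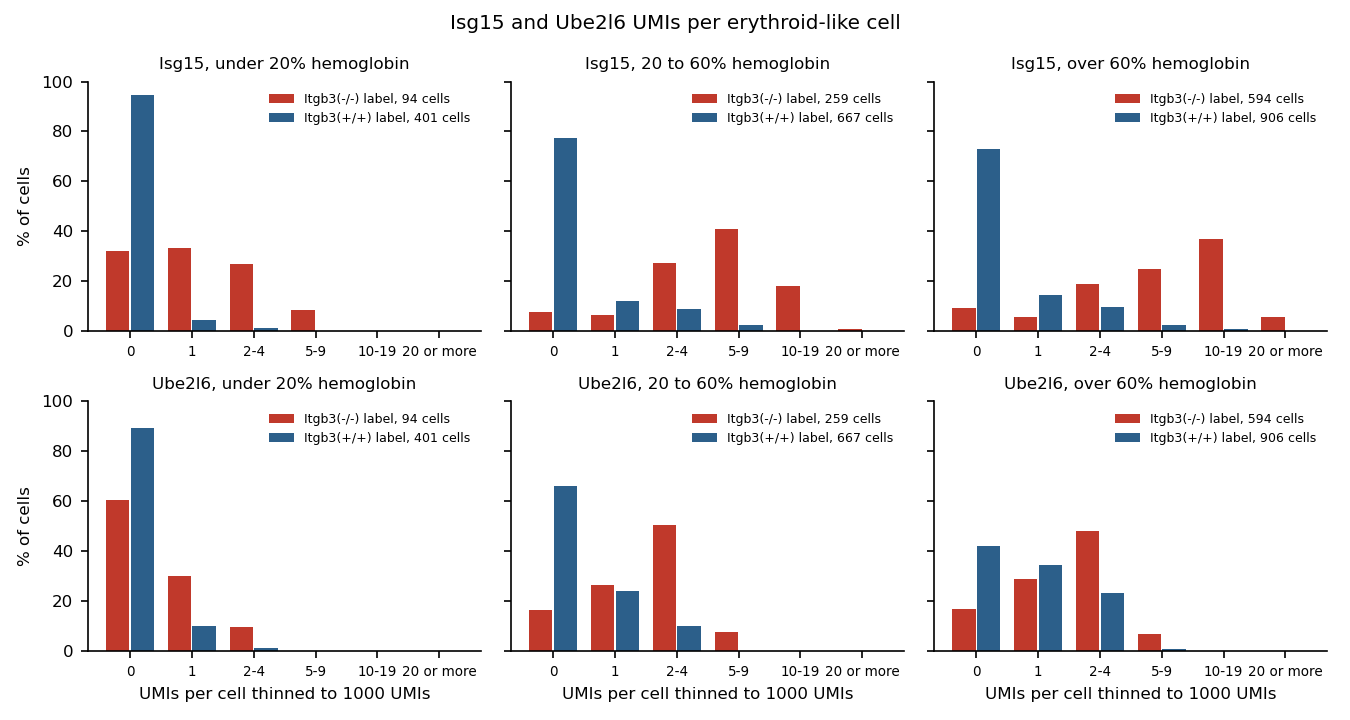
Percent of erythroid-like cells by number of Isg15 (top) and Ube2l6 (bottom) UMIs after thinning each cell to 1000 UMIs, in the 3 ranges of hemoglobin share, red null-labelled and blue control-labelled. In the range over 60% hemoglobin, null-labelled cells are most often in the bin of 10 to 19 Isg15 UMIs, whereas 73.1% of control-labelled cells hold 0.

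Outside the erythroid lineage, the thinned share of cells with Isg15 was larger among null-labelled cells of each compared class. Over all cells they were 50.1% (48.3 to 52.0) and 7.62% (7.06 to 8.21), or 77.1% and 20.1% unthinned. Mature neutrophil-like cells had 59.7% and 6.01%, monocyte-like cells 54.5% and 3.94%, and immature neutrophil-like cells 41.8% and 0.741%. Null-labelled granulocyte-monocyte progenitor-like cells had 41.2%, whereas 0 of 280 thinned control-labelled cells held a UMI, which allows up to 1.07% at that depth, and 18 of 282 (6.38%) did unthinned. In HSPC-like cells it was 32.3% against 0 of 59 thinned cells, which allows up to 5.08% at that depth, and 7 of 63 (11.1%) unthinned. Among the 9 compared classes the lymphoid ones were lowest in the null-labelled library, with 11.2% and 1.93% of B precursor-like, 15.7% and 3.02% of T-like, and 7.69% and 0.860% of mature B-like cells. In the null-labelled library the shares of B precursor-like (7.81 to 15.5) and T-like cells (10.1 to 22.8) had overlapping intervals. The level from summed UMIs was higher in B precursor-like cells, but the thinned mean was 0.182 UMIs per cell against 0.193 in T-like cells. Of the B precursor-like cells, 14 held 65.4% of the thinned Isg15 UMIs of the class. No class known to lack Isg15 was defined, so the mature B-like share, the lowest of these classes in the null-labelled library, is the nearest to a background, at median depths of 5814 and 2244 UMIs against 10030.0 and 5791 in erythroid-like cells. Control-labelled shares at or under 0.860%, as in the immature neutrophil-like and progenitor classes, are not read as expression.

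Free RNA was gauged from genes that B-like and T-like cells do not make. The hemoglobin found in them equalled 7.93% of the library-wide level in the null-labelled and 39.2% in the control-labelled library, while neutrophil S100 and granule transcripts equalled 0.295% and 0.873%. At the hemoglobin gauge, the measured Isg15 level of mature B-like cells was 0.379 (null-labelled) and 0.391 (control-labelled) times that which free RNA would bring, and that of T-like cells 0.907 and 0.699 times. Of the 9 classes, only these stood under it among null-labelled cells, whereas only erythroid-like and mature neutrophil-like cells stood above it among control-labelled ones. With free RNA subtracted as gauged from neutrophil transcripts, the log2 ratio of Isg15 was 1.76 for mature B-like and 2.23 for T-like cells. Those gauges differ widely, and the part of free RNA in the low Isg15 levels was not tested beyond the red cell RNA given above.

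The make-up of the pathway's UMIs also differed between the libraries. Isg15 was 70.4% of the 110180 null-labelled UMIs of the 5 genes and 37.6% of the 20007 control-labelled ones, and Ube2l6 was 18.5% and 48.3%. Usp18 was 3.61% and 1.66%, Uba7 3.06% and 6.34%, and Herc6 4.41% and 6.12%. In each of the 9 classes Isg15 took a larger share in the null-labelled library, from 37.0% against 11.6% in mature B-like to 77.4% against 17.0% in granulocyte-monocyte progenitor-like cells.

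Classes under 50 cells in a library are given as values only. Plasmacytoid dendritic-like cells (22 and 60), a class known for secreting interferon, held Isg15 at 734 and 9.71 CPM and Usp18 at 320.0 and 19.4 CPM. These were 172 and 3 UMIs of Isg15, the control value lying at the floor of 3 UMIs, and 75 and 6 UMIs of Usp18. Usp18 was thus higher there than in any compared class of its library, by value. Macrophage-like cells (49 and 223) held Isg15 at 2301 and 536 CPM and Ube2l6 at 514 and 695 CPM, with hemoglobin at 22.8% and 54.5% of their UMIs. Both control-labelled levels were above those of control-labelled erythroid-like cells, 341 CPM for Isg15 and 419.7 CPM for Ube2l6. Natural killer-like cells (36 and 82) held Isg15 at 33.6 and 8.38 CPM, on 12 and 3 UMIs. Basophil and mast-like cells (27 and 47) held Isg15 at 119 and 42.3 CPM, on 24 and 8 UMIs, and Usp18 on 12 and 0 UMIs, at least 3.76-fold higher against a floor of 3 UMIs.

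Of 12 genes linked to ISG15 by function, 5 had enough counts over all cells. Of these, 3 were 2-fold or more higher (7.88% of all genes) and 0 lower (12.1%), at a median log2 ratio of 1.55 beside -0.25. Stat2, the interferon signalling factor that brings USP18 to the receptor, was at 128 and 12.3 CPM. Rnf213, an ISG15-binding ubiquitin ligase, was at 174 and 32.7 CPM, and Ifnar2, the receptor subunit bound by USP18, at 131 and 45.0 CPM. Usp14, a deubiquitinase of the proteasome, was level at 61.2 and 60.3 CPM. In erythroid-like cells 4 of 5 were higher (7.52% of all genes), with Stat2 at a ratio of 17.8, Ifnar2 at 7.65 and Rnf213 at 7.33, while Usp14 was at 0.703.

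The ubiquitin counterparts of the pathway did not share its ratios. Of 26 genes for ubiquitin, related modifiers and their enzymes, 19 had enough counts over all cells. Of these, 0 were 2-fold higher (7.88% of all genes) or lower (12.1%), at a median log2 ratio of 0.09 beside -0.25. Rps27a and Fau, which encode fusions of a ubiquitin-family protein with a ribosomal protein, were at ratios of 0.952 and 1.02. The largest were Herc1, a giant relative of the ISG15 ligase, at 1.66, and Ufm1, another ubiquitin-like modifier, at 1.54. Uba1, the ubiquitin-activating counterpart of UBA7, was at 0.919 (0.871 to 0.969), and Ube2l3, the closest relative of UBE2L6, at 1.32 (1.28 to 1.36). In erythroid-like cells 0 of 19 were higher (7.52% of all genes) and 5 lower (44.6%), at a median of -0.30 beside -0.87. With TMM scaling 17 of them had enough counts, Herc2 no longer reaching 50 CPM, and 3 (Ube2h, Herc1 and Ubb) were higher and 0 lower, at a median of 0.59 beside 0.12. By total UMIs Uba1 was at 0.554 and Ube2l3 at 0.668 in the class. Over the ranges of hemoglobin share Uba1 was at 1.07, 0.728 and 0.297 and Ube2l3 at 1.06, 0.940 and 1.52, so the class ratio of Ube2l3 lay under that of each range. In the whole class Herc2, the ubiquitin ligase, was at 0.0721 (0.0533 to 0.0954), the modifier Nedd8 at 0.319, the polyubiquitin gene Ubb at 1.44 and Rps27a at 0.605.

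Other interferon-induced genes moved in the direction of the members. Of 25 listed, chosen with earlier results of these data known, 22 had enough counts over all cells. Of these, 21 were 2-fold or more higher (7.88% of all genes) and 0 lower (12.1%), at a median log2 ratio of 3.69 beside -0.25. Rsad2, the antiviral protein viperin, was at 956 and 133 CPM, Ifitm3, which restricts virus entry, at 3699 and 559.5 CPM, and the GTPases Gbp2 and Iigp1 at ratios of 125 and 205. In erythroid-like cells it was again 21 of 22 (7.52% of all genes) and 0 lower (44.6%), at a median of 4.65 beside -0.87. There Rsad2 was at 2299 and 344 CPM, Ifitm3 at 3450.0 and 107 CPM, Iigp1 at 106 CPM against 2 UMIs (ratio 894, 247 to 7394) and Zbp1, a nucleic acid sensor, at 59.8 CPM against 1 UMI (ratio 1005, 179.7 to 39749). Interferon genes were left out when cells were clustered, but not when clusters were named, and Bst2 is among the plasmacytoid dendritic markers.

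Genes whose levels ran most like Isg15 or Ube2l6 across classes were listed within each library. The measure was Pearson's r of log2(CPM + 10) over 11 null-labelled and 14 control-labelled classes and ranges. These share a library, so r is a description. Their median depths ran from 4217 to 35427 UMIs (null-labelled) and from 2244 to 19711 UMIs (control-labelled). Classes needed at least 50 cells in that library only, so control-labelled macrophage-like cells, at 54.5% hemoglobin, were included. Like Isg15 in the null-labelled library were Dcaf12 (0.954), Ube2l6 (0.947), Adipor1 (0.946), Ifnar2 (0.945) and Fbxo30 (0.925), and in the control-labelled library they included Rsad2 (0.964), Smox (0.957), Sowaha (0.942) and Apol11b (0.941). Like Ube2l6 in the null-labelled library were Dcaf12 (0.953), Isg15 (0.947), Rsad2 (0.947), Fbxo30 (0.946) and Uba7 (0.942). In the control-labelled library they included the heme synthesis enzyme Alas2 (0.983), the globins Hba-a1 (0.980) and Hbb-bt (0.979), and Bsdc1 (0.975). That order of Ube2l6 is not read as an order of expression, and the part of red cell RNA in these r values was not tested. The 2 members stood second in each other's lists in the null-labelled library. In the control-labelled library Ube2l6 had rank 9 for Isg15, and Isg15 had rank 30 for Ube2l6. Of the points, 3 are erythroid ranges.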

How the data were processed

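The deposited matrices hold whole-number UMI counts per gene and barcode, without normalization per the file headers and the values. Cell Ranger 3.0, Seurat and mm10 are named in the submitters' processing notes, and the matrices were written by software version 3.1.0, per the file headers. Of 31053 gene identifiers, 30934 (99.6%) were in GENCODE vM21.

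Kept barcodes had at least 200 genes and at most 10% mitochondrial UMIs (left out: 1307 of 4281 null-labelled, 3479 of 12764 control-labelled). Scrublet scores at a rate of 0.8% per 1000 cells removed 71 and 690 doublets (its automatic threshold marked 8 and 341). Cells were clustered jointly with scanpy 1.11.5 (2000 variable genes, 30 components, 15 neighbours, Leiden resolution 1, then 0.5 within clusters) without 280 interferon genes. The 39 clusters gave 155 sub-clusters, named from markers of 18 classes with scores set after the marker tables were seen, so names are rebuilt here, and 5.24% and 5.31% of cells stayed unnamed.

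UMIs were summed per class and library as CPM with exact Poisson intervals, and ratios with an exact binomial interval of how the UMIs divide between libraries (scipy 1.17.1). With 1 library per genotype no test was run, and the interval code was tested on simulated data. Thinning was to 1000 UMIs. TMM factors came from edgeR 4.0.16. The members and gene lists were chosen with earlier results of these data known. Named genes were the members and, of each list, the 2 with the highest control CPM and the 2 with the largest ratio among those with enough counts, plus, for Isg15 and Ube2l6 in each library, the 5 most alike by correlation, of which 1 gene is not reported here. Uba1 and Ube2l3 were named besides. Besides, 17 other processing choices were tried, and 2 more after the data were seen.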

Additional observations from a re-analysis of the deposited data

Results flagged for a closer look

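Barcodes with under 200 genes, which were left out of the cells, carried by value more of each member in the null-labelled library than in the control-labelled one. In the 1202 null-labelled barcodes with under 200 genes, Isg15 was at 465 CPM, Usp18 at 2.38 CPM and Ube2l6 at 906 CPM. In the 3223 such control-labelled barcodes the values were 155, 0.329 and 817 CPM, the Usp18 value on 4 UMIs. Uba7 was at 1.86 and 1.48 CPM (18 and 18 UMIs) and Herc6 at 3.41 and 1.81 CPM (33 and 22 UMIs). Hemoglobin was 94.7% and 92.3% of the UMIs of these barcodes, at median depths of 8907 and 3951 UMIs. Ube2l6 in mature B-like and T-like cells went against its direction in the other 7 classes, with log2 ratios of -2.17 and -1.98, and the difference between classes was not tested. Red cell RNA at the hemoglobin share of those classes would bring 74.7% and 81.2% of the control levels.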

How the results depend on the processing

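Over all cells the log2 ratios of Isg15, Usp18, Uba7, Ube2l6 and Herc6, in that order, became 3.82, 4.16, 2.09, 1.31 and 2.66 without a filter on barcodes and 4.37, 4.58, 2.42, 2.08 and 2.99 with TMM factors. With doublets kept, Isg15 was at 4.14 and Ube2l6 at 1.85; as a mean over cells, Usp18 was at 4.17 and Ube2l6 at 1.94; per UMI that was not hemoglobin, Isg15 was at 4.27 and Ube2l6 at 1.98. With at most 5% mitochondrial UMIs, Uba7 was at 2.35 and Herc6 at 3.05, and with thinning at 2.44 and 3.04. Shares of cells with Isg15 were 60.3% and 12.9% thinned to 2000 UMIs and 77.1% and 20.1% not thinned. Without a CPM minimum, 1110 genes were 2-fold higher and 2361 lower over all cells, and 535 and 4060 in erythroid-like cells; with TMM factors 200 were lower over all cells, and 429 higher and 207 lower in erythroid-like cells. By class, direction was kept in 120 of 121 values of Isg15, 122 of 122 of Usp18, 126 of 129 of Uba7, 121 of 121 of Ube2l6 and 128 of 129 of Herc6. The exceptions were Isg15 in mature B-like cells, at -0.13 with at most 5% mitochondrial UMIs, Herc6 in T-like cells, at -0.09 with free RNA gauged from hemoglobin subtracted, and Uba7 in HSPC-like cells, at -1.81 as a mean over cells and -1.23 clustered with all variable genes, and Uba7 in T-like cells, at 0.51 with thinning, from -0.33. The Herc6 log2 ratio of the last to the first control-labelled range turned from -0.40 to 1.84 per UMI that was not hemoglobin. Except for that denominator, the cause was not tested. No paired analysis was possible because each group held 1 library. No subtraction is given where under 3 UMIs would remain. Of the 9 classes, the counts of kept directions therefore hold Isg15 values with hemoglobin-gauged free RNA subtracted only for erythroid-like and mature neutrophil-like cells. In the other classes the control-labelled Isg15 level was 0.117 to 0.821 times that free RNA. For Ube2l6 they hold such a value only for erythroid-like cells. Usp18 has none in B precursor-like, immature neutrophil-like and granulocyte-monocyte progenitor-like cells, where its control-labelled level was under that free RNA too.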
